A study of Mus musculus with 10 samples.

Results

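The step across birth was measured by comparing ribosome footprints of newborn mouse neocortex (P0, the day of birth) with those of the last embryonic stage sampled, E17. Ribo-seq counts the mRNA fragments that ribosomes shield from nuclease, so the footprints of a gene depend both on how much of its mRNA is present and on how many ribosomes sit on it. The study followed neocortex neurogenesis over 5 stages between E12.5 and P0, with 2 libraries for each. All animals were wild-type CD-1 mice, and each library was a pool of dissected neocortex from many brains of both sexes. In every group, lysates were made without cycloheximide, digested with RNase T1 and RNase A, and 80S monosomes were collected. The members are the genes whose footprints came to 32 or more in some stage when both of its libraries were added, 13484 of the 22373 genes in the table. Of these genes, 12032 reached that sum at both E17 and P0, 963 at only one of them, and 489 only before E17. A gene that entered through only one of the stages tends to differ by that choice, and 218 of those 963 genes were called changed below.

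Around birth the mouse neocortex closes its production of projection neurons. The remaining radial glia, the stem cells that line the ventricle, turn to making astrocytes and oligodendrocytes. Neurons already in place extend axons and dendrites, assemble the release machinery of the presynaptic terminal and the receptor scaffolds of the postsynaptic side, and begin to be active together. The pup also leaves the placental supply, with a surge of stress and thyroid hormones and a change of fuel to milk fat. Tissue footprints average over all these cells, so fewer cells of a type and fewer footprints per cell cannot be told apart.

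The P0 libraries differed from each other more than the libraries of any other stage in this series. E17 replicates 1 and 2 held 28756045 and 23922339 counts, and P0 replicates 1 and 2 held 7544404 and 35685736. In the 4559 genes that averaged 500 counts or more, the log2 ratio of one replicate to the other had an SD of 0.54 for P0 and 0.14 for E17, where counting alone gives 0.09 and 0.06. At P0, 52.7% of these genes differed by 1.25-fold or more between replicates, against 2.39% at E17. Among the genes with the widest gap, Prelid1 gave 250.4 CPM (counts scaled to library size and composition) in P0 replicate 1 and 42.6 in replicate 2, and Atf5, a stress transcription factor, gave 67.3 and 14.2. In the other direction, Pcp4, a calmodulin-binding protein, gave 11.96 and 60.35, and Rbm39, a splicing factor, gave 192 and 952. None of these 4 genes was called changed, and they were picked after their values were seen.

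P0 replicate 2 also held footprints of genes of the small intestine. Fabp2, a fatty acid carrier of enterocytes, had 4 and 2 counts at E17, 0 in P0 replicate 1 and 1646 in P0 replicate 2. Apoa4, an apolipoprotein of enterocytes, had 1 and 2 counts at E17, 0 in P0 replicate 1 and 1260 in replicate 2. Defa24, an antimicrobial peptide of Paneth cells with near-identical copies, had 0 and 6 at E17, 0 and 1032 at P0. A list of 37 genes of enterocytes, goblet and Paneth cells, the pancreas and MHC class II, written after these values were seen, summed to 2.477 and 2.703 CPM at E17, to 1.74 in P0 replicate 1 and to 491.5 in P0 replicate 2. One other library of the series, E12.5 replicate 1, gave 307 CPM for the same list, and its remaining 8 libraries stayed between 1.74 and 7.48. Gene by gene, the CPM ratio of P0 replicate 2 to E12.5 replicate 1 lay between 1.35 and 2.29, with a median of 1.63. None of the 37 genes was called changed, and neither was any of the 214 genes with at least 32 counts in P0 replicate 2, at most 3 in P0 replicate 1 and at most 6 over E17. These genes were picked for a gap between the P0 libraries, which makes a call unlikely. The absence of calls among them therefore says nothing about other genes. Those 214 genes took 0.119% of the counts of P0 replicate 2. Whether the same material added footprints to genes that neocortex also expresses was not tested, so calls among the gene groups below are given also without P0 replicate 2.

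Markers of neocortex were present in all 4 libraries. Tbr1, a transcription factor of deep layers, gave 74.3 and 79.1 CPM at E17 and 103 and 74.0 at P0. Bcl11b, of neurons that project below the cortex, gave 45.7 and 41.3 at E17 and 62.5 and 38.7 at P0. Neurod6, of projection neurons, gave 258 and 253 at E17 and 162 and 227 at P0. None of these markers was called changed.

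Between E17 and P0, 2767 of 13484 genes were called changed (20.5% of those tested; limma-voom, adjusted p below 0.05 with a 1.25-fold change or more). Of these, 1275 were higher (9.46%) and 1492 lower (11.1%) at P0. With libraries scaled by total counts only, the median gene moved from -0.02 to 0.08 on the log2 scale, and 63.4% of called genes were higher instead of 46.1%. In 2363 genes (17.5%), 1109 higher (8.22%) and 1254 lower (9.3%), each P0 library by itself lay at least 1.25-fold beyond each E17 library. Among all genes tested, the libraries of both stages did not overlap in CPM for 7523 (55.8%), so a lack of overlap is common at this step. The fit uses a single spread for all 5 stages, although the replicate SD was 0.54 at P0 and 0.13 to 0.22 at other stages. Its p-values and SEs therefore understate the spread at P0. With a spread of its own for each stage (quality weights per stage), 758 genes were called, 429 higher (3.18%) and 329 lower (2.44%), and 757 of them were among the 2767. In fits of the 4 E17 and P0 libraries alone, limma-voom and edgeR called no gene (2957 and 2942 at an unadjusted p under 0.05), and DESeq2 called 784, of which 742 were among the 2767, all with the same sign. Without P0 replicate 2, 2213 genes were called higher (16.4%) and 2159 lower (16%), so counts in that fit are to be read against larger shares than those reported. For the gene groups below, pairs of counts under a spread per stage and without P0 replicate 2 give members called higher and then lower. Group counts as reported are to be read against 9.46% higher and 11.1% lower over all genes. Those under a spread per stage are to be read against 3.18% and 2.44%.

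Compared with separate E17 libraries, the P0 libraries moved the same way only in part. Over 9157 genes, 5518 differed by 1.25-fold or more in P0 replicate 1 minus E17 replicate 1. In P0 replicate 2 minus E17 replicate 2, 3775 genes did. In both differences, 1037 genes (11.3%) were at least 1.25-fold higher and 1216 (13.3%) at least 1.25-fold lower. In 351 genes (3.83%) these differences passed that fold in opposite directions. Their Pearson correlation across genes was 0.39. With the E17 libraries crossed, the counts were 996 higher, 1146 lower and 563 opposite, and the correlation was 0.34.

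**Figure D1:**
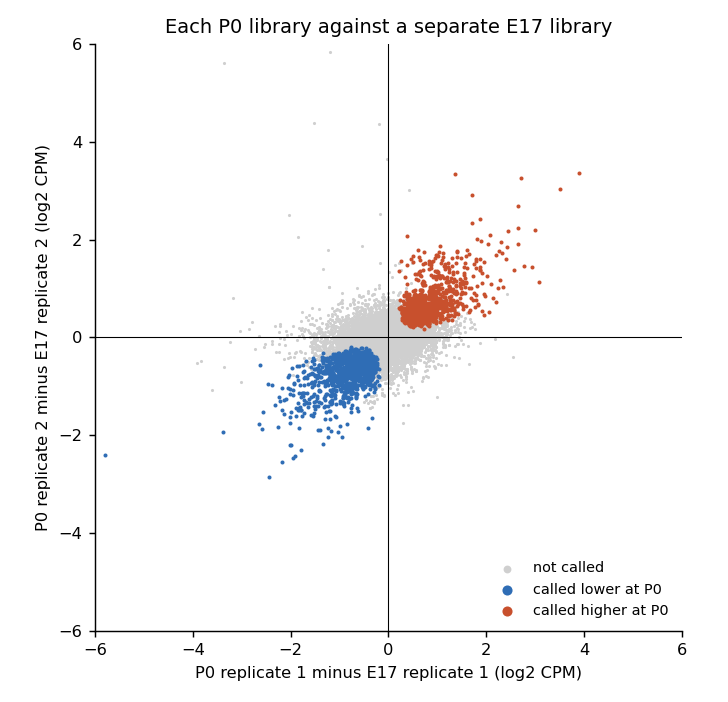
Each point is a gene, with the log2 CPM difference between P0 replicate 1 and E17 replicate 1 on the horizontal axis and between P0 replicate 2 and E17 replicate 2 on the vertical axis, red for genes called higher at P0, blue for called lower and grey for not called. Called genes fill the upper right and lower left quadrants, the uncalled cloud is wider along each axis, and 29 genes, none of them called and all high in P0 replicate 2, lie outside the plotted range.

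The leading rise was that of Gfap, the intermediate filament of astrocytes, with 0.635 and 1.13 CPM at E17 and 10.4 and 12.3 at P0. Its fitted log2 change was 3.78 ± 0.26 (SE; n = 2 libraries per stage here and for every fitted value; adjusted p = 0.0004). Nrgn (neurogranin), which binds calmodulin in dendrites, gave 27.9 and 37.4 CPM at E17 and 318 and 306 at P0, a log2 change of 3.27 ± 0.18 (adjusted p = 0.00017). In both genes the P0 libraries lay close together and far above both E17 libraries. The other leading rises were Fam107a, an actin-binding protein (3.09 ± 0.21), Cpne8, a calcium-dependent membrane-binding protein (2.56 ± 0.29), Tshz2, a zinc-finger transcription factor (2.35 ± 0.14), Cryab, a small heat shock protein (2.31 ± 0.45), Nwd2 (2.16 ± 0.24), Adhfe1, a mitochondrial transhydrogenase (2.98 ± 0.57), Vsnl1, a calcium sensor of neurons (2.13 ± 0.13), Rasgrf2, a Ras activator of upper-layer neurons (2.07 ± 0.21), and Gda, guanine deaminase (2.13 ± 0.43). To be listed, these 11 genes had to be called with both P0 libraries beyond both E17 libraries. They were ranked by the smaller of the changes in the P0 libraries, and 10 of them kept the call with a spread per stage. Cryab did not (adjusted p = 0.093), and its E17 libraries differed widely, at 2.67 and 1.09 CPM.

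The leading falls joined regulators of neurogenesis, cell division and blood. Dlk1, an imprinted Notch-like ligand, gave 10.1 and 5.89 CPM at E17 and 0.109 and 1.05 at P0, a log2 change of -3.32 ± 0.65. The P0 values rest on 1 and 44 counts, and the call was lost with a spread per stage (adjusted p = 0.21) and without P0 replicate 2 (-5.58; adjusted p = 0.095). Neurog2, the proneural factor that commits cortical progenitors to a glutamatergic neuronal fate, gave 22.2 and 18.9 CPM at E17 and 4.02 and 2.55 at P0, a log2 change of -2.83 ± 0.24 (adjusted p = 0.00088). Both P0 libraries lay several-fold below both E17 libraries. Tfap2c, a transcription factor of basal progenitors, changed by -2.04 ± 0.18, and Cdon, a co-receptor for Sonic hedgehog, by -2.39 ± 0.30 (adjusted p = 0.061 with a spread per stage). Ccna2 (cyclin A, -1.90 ± 0.12) and Spc25 (a kinetochore subunit, -2.11 ± 0.24) belong to the mitosis genes below. Mfap4, a microfibril protein of connective tissue (-2.70 ± 0.31), and Sema3c, a secreted guidance cue (-2.07 ± 0.25), also fell. The remaining 4 of the 12 leading falls are adult globins, described with the red blood cell genes.

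**Figure D2:**
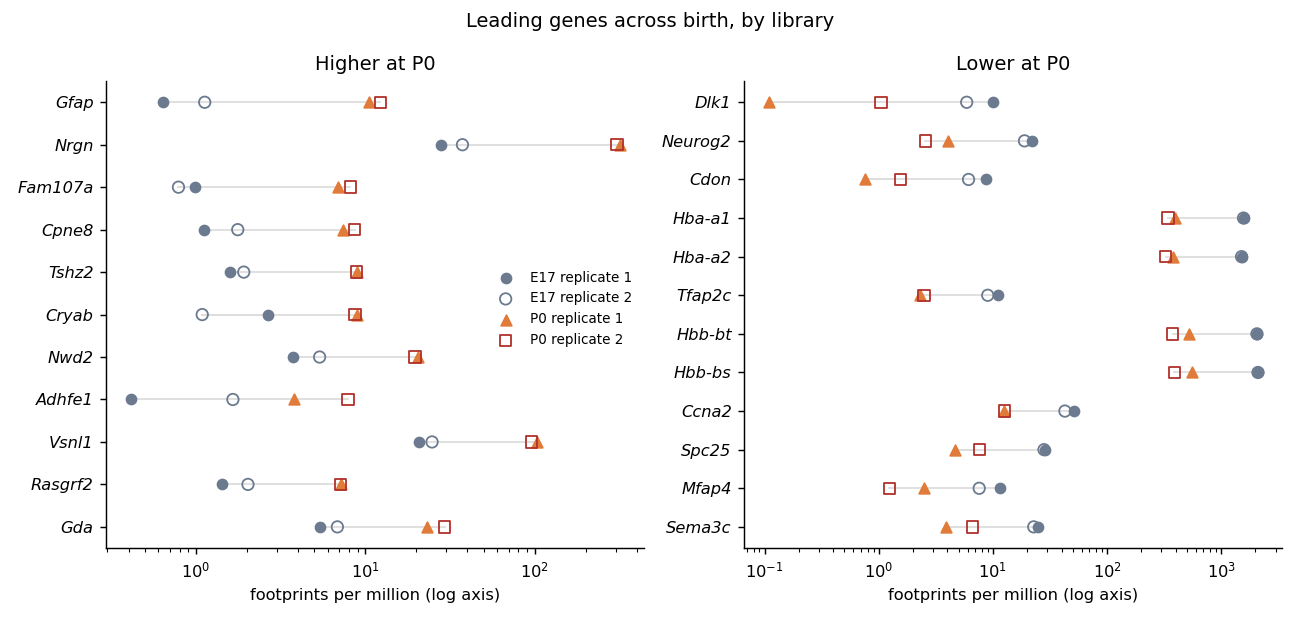
CPM of 11 leading rises (left) and 12 leading falls (right) in each of the 4 libraries, on log axes, with circles for E17 replicates, a triangle for P0 replicate 1 and a square for P0 replicate 2. By the rule that picked them, no P0 library overlaps an E17 library in any of the 23 genes. The widest gap between P0 replicates is that of Dlk1, at 0.109 and 1.05 CPM.

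Genes of the presynaptic terminal were mostly higher where called. Of 31 members tested, 18 were higher and 1 was lower, with a median log2 change of 0.50 against -0.02 over all genes tested, and medians of 0.54 in P0 replicate 1 and 0.64 in P0 replicate 2. With a spread per stage 12 remained higher and none lower, and without P0 replicate 2 the counts were 22 and 1. Stx1a (syntaxin 1A), a membrane SNARE that drives vesicle fusion, gave 38.6 and 42.5 CPM at E17 and 77.2 and 102 at P0, a log2 change of 1.15 ± 0.14 (adjusted p = 0.0021). Sncb (beta-synuclein) gave 103 and 125 at E17 and 207 and 253 at P0, a change of 1.01 ± 0.13. Doc2b, a calcium sensor of release, changed by 1.15 ± 0.19. Both P0 libraries lay above both E17 libraries in all of these, which was a condition for naming them. Slc17a6, the vesicular glutamate transporter VGLUT2, was the member called lower (-0.63 ± 0.16), with 10.1 and 9.24 CPM at E17 and 6.20 and 6.23 at P0. That call was lost with a spread per stage (adjusted p = 0.22) and without P0 replicate 2 (0.073). Its cortical counterpart Slc17a7 (VGLUT1) gave 6.92 and 7.10 CPM at E17 and 10.2 and 6.80 at P0, where the P0 libraries lay on either side of E17, and was not called (0.16 ± 0.18).

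On the postsynaptic side, 11 of 29 scaffold and adhesion genes were higher and 1 lower, with a median of 0.33. With a spread per stage 6 remained higher, and without P0 replicate 2 the counts were 17 higher and 2 lower. Psd3, an Arf exchange factor of the postsynaptic density, gave 36.4 and 38.97 CPM at E17 and 71.5 and 89.5 at P0, a change of 1.10 ± 0.13 (adjusted p = 0.002). Its relative Psd gave 14.2 and 15.0 at E17 and 48.0 and 28.2 at P0 (1.29 ± 0.23). Dlg4 (PSD-95), the central scaffold of the excitatory synapse, changed by 0.58 ± 0.10, while Dlg3 (SAP102), a scaffold of young synapses, gave 24.1 and 24.9 CPM at E17 and 23.6 and 33.1 at P0 and was not called (0.23 ± 0.15). Cnksr2, a scaffold of Ras signalling, rose by 1.05 ± 0.27, but it gave 11.3 CPM in P0 replicate 1 and 21.9 in replicate 2, and the call was lost without P0 replicate 2 (adjusted p = 0.1). Nlgn1 (neuroligin 1), an adhesion protein of excitatory synapses, was called lower (-0.57 ± 0.13), with an adjusted p of 0.12 under a spread per stage.

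Glutamate receptor genes did not move in 1 direction. Of 25 glutamate receptor genes tested, 4 were higher and 4 lower (median 0.08, with 1 and 0 under a spread per stage and 7 and 3 without P0 replicate 2). As reported, 16% of the list was higher and 16% lower, against 9.46% and 11.1% over all genes. Grin3a, an NMDA receptor subunit of immature synapses, gave 1.65 and 2.18 CPM at E17 and 6.42 and 4.70 at P0, a change of 1.46 ± 0.22 (adjusted p = 0.0044), and kept the call with a spread per stage. Cnih3, an auxiliary subunit of AMPA receptors, gave 25.7 and 31.4 at E17 and 11.6 and 13.9 at P0 (-1.12 ± 0.18; adjusted p = 0.063 with a spread per stage). Grin2b, the NMDA subunit that predominates before birth, gave 26.6 and 26.7 CPM at E17 and 39.2 and 23.5 at P0 and was not called. Grin2a, the subunit that joins it after birth, gave 0.572 and 0.713 at E17 and 0.653 and 0.740 at P0 and was not called. Grin2b thus lay above both E17 libraries in P0 replicate 1 and below them in replicate 2.

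Of 14 genes of GABA-A receptors and chloride transport, 3 were higher and none lower (median 0.19, with 2 and 0 under a spread per stage and 2 and 1 without P0 replicate 2). Gabra5, a receptor subunit of extrasynaptic sites, gave 6.10 and 6.19 CPM at E17 and 13.9 and 13.7 at P0, a change of 1.16 ± 0.16. Slc12a5 (KCC2), the transporter that lowers chloride in maturing neurons, gave 9.30 and 9.01 at E17 and 20.6 and 13.6 at P0, and Slc12a2 (NKCC1), which raises it, gave 2.86 and 3.12 at E17 and 2.07 and 1.96 at P0. The stages did not overlap in either gene, and their log2 changes were 0.80 ± 0.26 (adjusted p = 0.061) and -0.58 ± 0.18 (0.057), so neither passed the threshold. Among 46 sodium, calcium and potassium channel genes, 7 were higher and 5 lower, or 15.2% and 10.9% against 9.46% and 11.1% over all genes. Their median was -0.01, and 0.09 with total counts only. The counts were 3 and 1 under a spread per stage and 12 and 3 without P0 replicate 2. Kcnj6 (GIRK2), a potassium channel opened by G proteins, gave 0.857 and 1.43 CPM at E17 and 4.57 and 3.79 at P0 (1.87 ± 0.23). Cacna2d1, a calcium channel subunit, gave 69.6 and 67.5 at E17 and 34.5 and 38.02 at P0 (-0.91 ± 0.13). Both of these kept the call with a spread per stage. The sodium channels Scn2a (0.03 ± 0.11) and Scn3a (-0.23 ± 0.13) were not called.

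Calcium signalling genes rose where they were called. Of 28 genes of calmodulin, its kinases and calcium sensors, 12 were higher and none lower, with a median of 0.47, and 9 remained higher with a spread per stage. Without P0 replicate 2 the counts were 13 higher and 5 lower. Camk2a, the alpha subunit of CaM kinase II and a protein of synaptic plasticity, gave 14.8 and 19.0 CPM at E17 and 57.4 and 55.9 at P0, a change of 1.75 ± 0.15 (adjusted p = 0.00094). Camk2b, the subunit expressed earlier in development, gave 577 and 619 at E17 and 1154 and 1012 at P0 (0.86 ± 0.12). Camk4, a nuclear CaM kinase, changed by 1.16 ± 0.11. In all 3 kinases the P0 libraries lay close together.

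Growth cone and cytoskeleton genes were widely but moderately higher gene by gene. Their summed level was not higher, at 105802 and 106826 CPM at E17 and 84850 and 104438 at P0. Of 35 tested, 20 were higher and 2 lower, with a median of 0.49 and medians of 0.41 and 0.42 in the P0 libraries. Of the 22 called members 1, Map1a, changed by 2-fold or more, 5 remained higher with a spread per stage, and without P0 replicate 2 the counts were 18 and 3. Map1a, the microtubule-associated protein of mature dendrites, gave 12.1 and 13.97 CPM at E17 and 33.4 and 24.3 at P0 (1.10 ± 0.16). Its juvenile relative Map1b gave 213 and 227 at E17 and 265 and 311 at P0 (0.39 ± 0.10; adjusted p = 0.12 with a spread per stage). Nefl, the light neurofilament chain, changed by 0.92 ± 0.13, and Dpysl4, a collapsin response mediator, by 0.74 ± 0.10. L1cam (-0.47 ± 0.13) and Nfasc (-0.89 ± 0.19), axonal adhesion proteins, were the members called lower, and neither kept the call with a spread per stage. L1cam gave 66.6 and 64.0 CPM at E17 and 54.3 and 42.3 at P0, with a change of -0.27 (adjusted p = 0.11) without P0 replicate 2. Nfasc gave 31.9 and 27.8 at E17 and 20.1 and 13.8 at P0, with a change of -0.56 without P0 replicate 2. Stmn1, a microtubule destabiliser, gave 14552 and 14964 CPM at E17 and 9281 and 13875 at P0 and was not called.

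Among 19 neuropeptide and granin genes, 4 were higher and 2 lower, or 21.1% and 10.5% against 9.46% and 11.1% over all genes. Their median was 0.00, with 3 and 0 under a spread per stage and 6 and 2 without P0 replicate 2. Cck, a peptide of cortical neurons, gave 36.9 and 46.1 CPM at E17 and 123 and 110.3 at P0, a change of 1.49 ± 0.14 (adjusted p = 0.0011). Vip, the peptide of a class of interneurons, had 3 and 0 counts at E17 and 11 and 46 at P0 (adjusted p = 0.0066). Its footprints reached the minimum sum at P0 and not at E17, which by itself tends to give a rise. Vgf, an activity-induced secretory protein, rose with P0 values of 22.5 and 11.4 CPM above E17 values of 7.02 and 7.77 (1.02 ± 0.28). On omission of P0 replicate 1 its log2 change came to 0.63, on omission of replicate 2 to 1.61, and the call was lost in 12 of 21 alternatives, among them a spread per stage (adjusted p = 0.071) and the omission of any 1 library of E12.5 to E17. Scg3, a granin of secretory granules, gave 102 and 93.5 at E17 and 41.98 and 59.8 at P0 (-0.94 ± 0.18; adjusted p = 0.051 with a spread per stage).

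Genes that mark the layers of the cortex changed in both directions. Of 16 upper-layer genes, 3 were higher and 3 lower (median 0.08, with 3 and 2 under a spread per stage and 6 and 3 without P0 replicate 2). Mef2c, an activity-dependent transcription factor, gave 1240.4 and 1360.1 CPM at E17 and 2337 and 3216 at P0 (1.07 ± 0.16), and Lmo4 changed by 0.85 ± 0.15. Unc5d, a netrin receptor of neurons leaving the subventricular zone, gave 19.5 and 16.5 at E17 and 9.25 and 6.32 at P0 (-1.31 ± 0.18), and Lhx2, a factor of progenitors and upper layers, changed by -0.83 ± 0.14. Of 16 deep-layer and subplate genes, 4 were higher and 3 lower (median 0.15, with 4 and 1 under a spread per stage and 6 and 2 without P0 replicate 2). Cplx3, a complexin of subplate neurons, had 5 and 9 counts at E17 and 47 and 234 at P0, or 0.159 and 0.338 CPM against 5.11 and 5.58, a change of 4.50 ± 0.58 (adjusted p = 0.0025). Cplx3 reached the minimum sum of footprints at P0 and not at E17, a choice that by itself tends to give a rise. Nr4a2 (Nurr1), another subplate gene, changed by 0.78 ± 0.11. Nxph4, also of the subplate, gave 4.79 and 4.77 at E17 and 2.39 and 1.38 at P0 (-1.61 ± 0.21, and -0.97 without P0 replicate 2). These 7 genes kept the call with a spread per stage.

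Mitosis genes were nearly all lower. Of 47 mitosis genes tested, 44 were lower and none higher (median -1.37, with medians of -1.60 and -1.37 in the P0 libraries), 26 remained lower with a spread per stage, and 36 were lower without P0 replicate 2. The members not called were Incenp, Kif20b and Smc2, all with fitted values below 0. Ccna2 gave 51.5 and 42.8 CPM at E17 and 12.6 in each P0 library. Spc25 gave 28.4 and 28.05 at E17 and 4.68 and 7.64 at P0. Kif15, a spindle motor, gave 4.35 and 3.94 at E17 and 0.653 and 1.29 at P0 (-1.83 ± 0.23). Of 44 DNA replication genes, 22 were lower and none higher (median -0.62, with 0 and 4 under a spread per stage and 0 and 22 without P0 replicate 2). Tyms (thymidylate synthase) gave 42.3 and 46.9 at E17 and 18.1 and 16.4 at P0 (-1.38 ± 0.11), and Tk1 (thymidine kinase) changed by -1.46 ± 0.15. The difference between the replication and mitosis lists was not tested.

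Mitosis genes are known to share promoter elements, the cell cycle genes homology region (CHR) and CCAAT boxes, so the promoters of 2 members that hold a CHR and 1 that does not are shown. They are RefSeq sequences (GRCm38.p6) from 250 bases before to 50 bases after the start, with the CHR (TTTGAA, or TTCAAA on the other strand) and CCAAT (or ATTGG) in capitals.
Spc25, chr2:69206164-69206463, minus strand: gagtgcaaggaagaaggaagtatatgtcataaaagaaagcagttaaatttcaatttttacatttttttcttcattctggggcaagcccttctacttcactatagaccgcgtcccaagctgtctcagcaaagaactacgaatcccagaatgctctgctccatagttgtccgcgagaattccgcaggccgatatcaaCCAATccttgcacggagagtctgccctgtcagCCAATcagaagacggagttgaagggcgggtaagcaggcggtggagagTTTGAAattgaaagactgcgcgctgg
Cdca3, chr6:124829926-124830225, plus strand: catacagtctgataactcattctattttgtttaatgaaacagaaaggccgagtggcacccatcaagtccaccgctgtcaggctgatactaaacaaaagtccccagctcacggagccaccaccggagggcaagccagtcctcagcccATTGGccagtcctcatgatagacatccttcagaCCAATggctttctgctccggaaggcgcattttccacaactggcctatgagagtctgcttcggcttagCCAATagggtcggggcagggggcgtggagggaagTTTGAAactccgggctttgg
Cks2, chr13:51644982-51645281, plus strand: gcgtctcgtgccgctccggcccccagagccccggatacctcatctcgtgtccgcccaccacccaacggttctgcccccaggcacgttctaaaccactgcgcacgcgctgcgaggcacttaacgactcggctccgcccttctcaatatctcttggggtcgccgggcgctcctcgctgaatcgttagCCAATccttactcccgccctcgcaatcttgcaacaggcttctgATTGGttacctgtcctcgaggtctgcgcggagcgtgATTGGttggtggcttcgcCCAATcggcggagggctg
Both Spc25 and Cdca3 hold 1 CHR, which begins 24 and 30 bases after the start, and 2 or 3 CCAAT boxes, and Cks2 holds 4 CCAAT boxes and no CHR. Cdca3, a regulator of mitotic entry, gave 6.64 and 5.03 CPM at E17 and 1.74 and 1.60 at P0 (-1.82 ± 0.25), and Cks2, a subunit of cyclin-dependent kinases, gave 45.6 and 41.0 at E17 and 11.2 and 13.2 at P0 (-1.80 ± 0.13). Both were picked for their promoters after their values were seen.

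Of the 47 mitosis genes, 40 matched a promoter in the reference, and a CHR stood in 32 of them, or in 81% of their windows against 17.9% of all 32851 promoter windows. Among the 32 genes with a CHR 30 were called lower (median -1.36), and among the 8 without one 8 were called lower (median -1.50). Of the 35 replication genes with a promoter, 5 held a CHR (11.9% of windows). A CCAAT box stood in 31 of the 40 mitosis genes and 22 of the 35 replication genes, that is in 78.6% and 59.5% of windows against 37.4% of all windows. These matches describe letters in the window only.

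Replication-dependent histone genes, whose mRNA is made in S phase, were lower in 39 of 66 cases and higher in none (median -0.86). This group differed between the P0 libraries, with medians of -0.44 in replicate 1 and -1.14 in replicate 2. Its summed level was 124101 and 109203 CPM at E17 and 80646 and 53823 at P0. With a spread per stage 27 remained lower, 32 were lower without P0 replicate 2, and 64 without P0 replicate 1. Hist1h1b, a linker histone, gave 288 and 261 CPM at E17 and 127 and 105 at P0 (-1.26 ± 0.11). Core histone genes are near-identical copies, so single members such as Hist1h2aa (-1.49 ± 0.20) are uncertain.

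Progenitor genes were mostly lower where called. Of 15 proneural and intermediate progenitor genes, 10 were lower and none higher (median -1.37), 6 remained lower with a spread per stage, and without P0 replicate 2 8 were lower and 1 higher. Neurod4, a proneural factor, gave 1.81 and 1.502 CPM at E17 and 0.218 and 0.143 at P0 (-3.27 ± 0.44), with 2 and 6 counts at P0. Nhlh1, a marker of newborn neurons, had 82 and 54 counts at E17 and 8 and 2 at P0. Both Neurod4 and Nhlh1 reached the minimum sum of footprints at E17 and not at P0, which by itself tends to give a fall. Neither of these kept the call with a spread per stage or without P0 replicate 2, while Neurog2 kept it in both fits. Of 25 radial glia and Notch genes, 10 were lower and 1 higher (median -0.56, with 1 and 5 under a spread per stage and 3 and 8 without P0 replicate 2). Prom1 (CD133), a membrane protein of apical progenitors, gave 16.96 and 12.2 at E17 and 4.68 and 4.32 at P0 (-1.70 ± 0.20), and Tead2, a Hippo pathway factor, gave 12.8 and 10.9 at E17 and 6.20 and 2.79 at P0 (-1.74 ± 0.27, and -0.92 without P0 replicate 2). Id3, an inhibitor of proneural factors that BMP induces, gave 18.8 and 23.0 at E17 and 65.0 and 42.1 at P0 (1.30 ± 0.22) and was the member that rose.

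**Figure D3:**
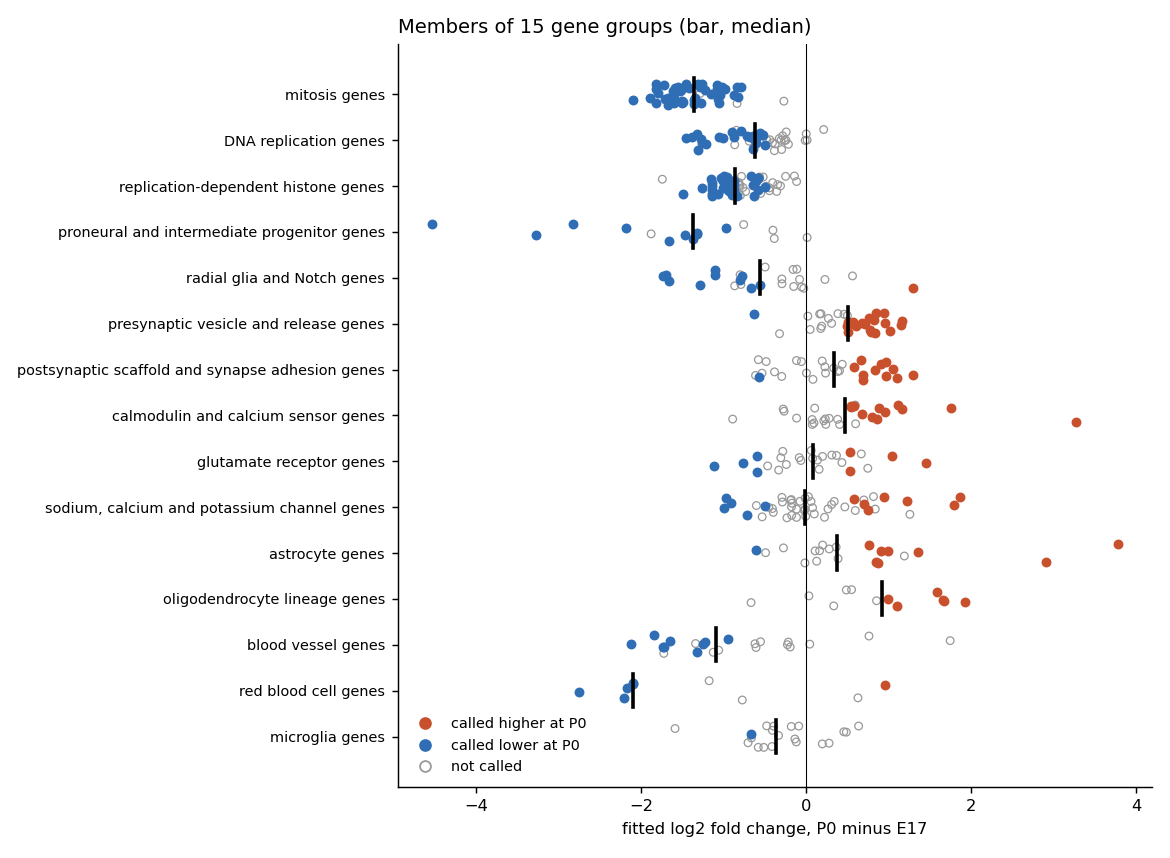
Fitted log2 change from E17 to P0 of each tested member of 15 gene groups, red for called higher, blue for called lower, open grey for not called, with a bar at the group's median. Mitosis genes lie almost wholly below 0 with a median of -1.37, presynaptic genes mostly above 0 with a median of 0.50, and glutamate receptor and channel genes on both sides.

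Fetal growth genes were mostly lower, with 10 of 14 lower and 2 higher (median -0.81), but only 2 remained lower with a spread per stage, and 4 without P0 replicate 2. Igf2, the fetal insulin-like growth factor, gave 52.3 and 48.9 CPM at E17 and 22.1 and 13.6 at P0 (-1.62 ± 0.19; adjusted p = 0.0063 with a spread per stage). Ndn (necdin), an imprinted gene of postmitotic neurons, gave 146 in each E17 library and 271 and 213 at P0 (0.71 ± 0.13). Lin28a and Lin28b, fetal regulators of let-7, had 0 to 1 counts in either stage and were not tested. Few cytosolic ribosomal protein genes were called in the reported fit, with 6.17% lower against 11.1% over all genes. Their median was -0.20 in P0 replicate 1 and -0.08 in replicate 2, against -0.04 and 0.01 over all genes. Of 81 tested, 5 were lower and none higher (median -0.14, and -0.02 with total counts only), and 1 remained lower with a spread per stage. Without P0 replicate 2 the same list gave 6 higher and 30 lower. Rps27l, a p53-induced paralog, gave 211 and 206 CPM at E17 and 126 and 123 at P0 (-0.75 ± 0.10).

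Metabolic genes changed one by one. Of 28 HIF-1 target and glycolysis genes, 7 were higher and 5 lower (median 0.00, with 3 and 3 under a spread per stage and 8 and 6 without P0 replicate 2). As reported, 25% of the list was higher and 17.9% lower, against 9.46% and 11.1% over all genes. Slc2a1 (GLUT1), the glucose transporter of the blood-brain barrier, gave 15.4 and 16.5 CPM at E17 and 6.09 and 3.60 at P0 (-1.91 ± 0.20; adjusted p = 0.0013). Pfkp, the platelet-type phosphofructokinase, gave 3.24 and 2.89 at E17 and 6.31 and 9.09 at P0 (1.39 ± 0.21), and Hk1, the hexokinase of brain, changed by 0.72 ± 0.09. All 3 kept the call with a spread per stage. Of 20 ketone body and fatty acid oxidation genes, 4 were higher and 1 lower (median 0.10, with 0 and 0 under a spread per stage and 2 and 3 without P0 replicate 2). As reported, 20% of this list was higher and 5% lower, against 9.46% and 11.1% over all genes. Slc16a1 (MCT1), which carries lactate and ketone bodies, gave 4.57 and 4.28 at E17 and 2.07 and 2.29 at P0. None of these 20 genes kept the call with a spread per stage. Oxidative phosphorylation genes were called less often than all genes, with 2.47% higher and 1.23% lower against 9.46% and 11.1%. Of 81 oxidative phosphorylation genes, 2 were higher and 1 lower (median 0.06, with 1 and 0 under a spread per stage and 17 and 11 without P0 replicate 2), and the call left with a spread per stage was that of Atp5a1, an ATP synthase subunit (0.53 ± 0.09). Cholesterol synthesis genes were lower in 9 of 25 cases and higher in none (median -0.29, with 0 and 1 under a spread per stage and 1 and 7 without P0 replicate 2). Cyp51, the lanosterol demethylase, gave 40.8 and 41.1 at E17 and 18.3 and 21.0 at P0 (-1.04 ± 0.11) and was the member that kept the call with a spread per stage.

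Genes that respond to hormones and to activity were mostly higher where called. Of 14 glucocorticoid-responsive genes, 7 were higher and 1 lower (median 0.49, with 6 and 0 under a spread per stage and 8 and 1 without P0 replicate 2). Sgk1, a kinase induced by glucocorticoids, gave 19.1 and 20.6 CPM at E17 and 56.9 and 59.5 at P0 (1.55 ± 0.13; adjusted p = 0.00078). Cdkn1a (p21), a cell cycle inhibitor, gave 14.7 and 19.8 at E17 and 58.3 and 35.8 at P0 (1.38 ± 0.23), and Zbtb16 changed by 1.19 ± 0.18. Of 10 genes of thyroid hormone handling and response, 3 were higher and 1 lower (median 0.53, with 2 and 1 under a spread per stage and 3 and 1 without P0 replicate 2). Klf9, a factor that both thyroid hormone and glucocorticoids induce, gave 1.71 and 1.65 at E17 and 6.53 and 6.71 at P0 (1.97 ± 0.19). Slco1c1 (OATP1C1), the thyroxine transporter of brain vessels and astrocytes, gave 25.6 and 26.1 at E17 and 9.46 and 10.5 at P0 (-1.36 ± 0.12). Nrgn, a known thyroid hormone target, is counted in this list and in the calmodulin list.

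Of 18 immediate early genes, 4 were higher and none lower (median 0.09, with 1 and 0 under a spread per stage and 6 and 0 without P0 replicate 2). As reported, 22.2% of the list was higher, against 9.46% over all genes. Egr1 gave 0.889 and 1.76 CPM at E17 and 8.59 and 5.37 at P0 (2.35 ± 0.33) and alone kept the call with a spread per stage. Fos rested on 7 and 6 counts at E17 and 8 and 37 at P0. Its footprints reached the minimum sum at P0 and not at E17, which by itself tends to give a rise. Of 14 heat and cold shock genes, 4 were higher and 1 lower (median 0.22, with 1 and 0 under a spread per stage and 4 and 3 without P0 replicate 2). Rbm3, an RNA-binding protein induced by mild cold, gave 1874 and 1779.6 at E17 and 3052 and 3930.1 at P0 (0.92 ± 0.13). Hspa1a and Hspa1b, the inducible HSP70 genes, are near-identical copies and gave 3.59 and 3.81 CPM in P0 replicate 1 and 2.12 and 2.17 in replicate 2, above 0.794 to 1.20 at E17, and neither kept the call with a spread per stage. Of 24 Atf4 target genes, 2 were higher and none lower, or 8.33% higher against 9.46% over all genes. Their median was -0.04, and 0.08 with total counts only. The counts were 1 and 0 under a spread per stage and 3 and 1 without P0 replicate 2. Asns (asparagine synthetase) gave 23.0 and 27.0 at E17 and 52.5 in each P0 library (1.08 ± 0.10).

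**Figure D4:**
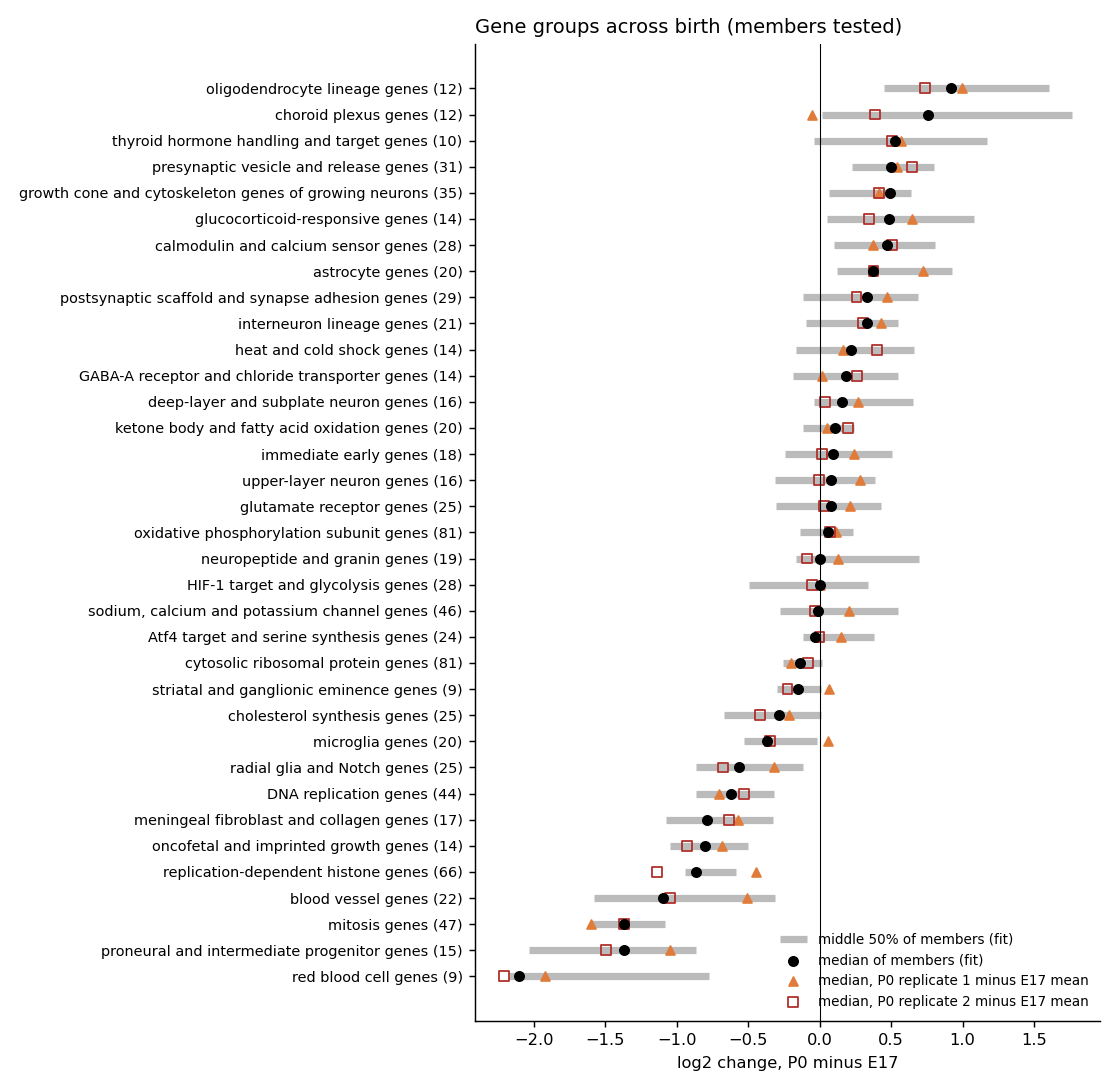
Median log2 change from E17 to P0 of 35 gene groups, with the number of tested members in brackets: black dots and grey bars give the median and middle 50% of fitted values, triangles the median of P0 replicate 1 minus the E17 mean, and squares that of P0 replicate 2. The red blood cell, proneural and mitosis genes lie lowest with medians of -2.10, -1.37 and -1.37, oligodendrocyte lineage genes highest with 0.92, and the P0 libraries lie farthest apart for replication-dependent histone genes, at -0.44 and -1.14.

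Glial genes were mostly higher where called. Of 20 astrocyte genes, 8 were higher and 1 lower (median 0.37, with 5 and 0 under a spread per stage and 11 and 1 without P0 replicate 2), and the summed level was 1054 and 1082 CPM at E17 and 1213 and 1138 at P0. Aqp4, the water channel of astrocyte endfeet, had 7 and 9 counts at E17 and 19 and 90 at P0, or 0.222 and 0.338 CPM against 2.07 and 2.15 (2.91 ± 0.35). Aqp4 reached the minimum sum of footprints at P0 and not at E17, a choice that by itself tends to give a rise. Mt3, a metallothionein of astrocytes, was the member called lower, with 504 and 507 CPM at E17 and 326 and 334 at P0. Of 12 oligodendrocyte lineage genes tested, 6 were higher and none lower (median 0.92, with 3 and 0 under a spread per stage and 4 and 0 without P0 replicate 2), and the sum was 70 and 86 CPM at E17 and 158 and 129 at P0. Sox10, the lineage's defining transcription factor, gave 0.984 and 1.31 at E17 and 3.92 and 3.51 at P0 (1.67 ± 0.29). The calls of Bcas1 (1.93 ± 0.40) and Nkx2-2 (1.66 ± 0.42) were lost with a spread per stage and without P0 replicate 2. Myelin genes of mature cells were at or near 0, with 1 count of Mog in each stage and 0 of Opalin and Enpp6.

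Blood vessel and red blood cell genes were mostly lower where called. Of 22 blood vessel genes, 9 were lower and none higher (median -1.10), and their sum was 114 and 128 CPM at E17 and 104 and 82 at P0. None kept the call with a spread per stage or without P0 replicate 2. Flt1, a VEGF receptor of endothelium, had 36 and 37 counts at E17 and 3 and 11 at P0. Its footprints reached the minimum sum at E17 and not at P0, which by itself tends to give a fall. Red blood cell genes summed to 7259.7 and 7253 CPM at E17 and 1862 and 1439 at P0, with 5 of 9 lower and 1 higher (median -2.10, with 0 and 5 under a spread per stage and 1 and 5 without P0 replicate 2). Hbb-bs, an adult beta-globin, gave 2093 and 2104 CPM at E17 and 552 and 389.6 at P0 (-2.17 ± 0.16), and Alas2, the erythroid enzyme of haem synthesis, gave 5.05 and 5.56 at E17 and 0.653 and 0.788 at P0 (-2.76 ± 0.20). Hba-a1 with Hba-a2 (-2.11 and -2.10) and Hbb-bs with Hbb-bt (-2.17 and -2.21) are near-identical copies whose reads cannot be told apart. The embryonic globin Hbb-y gave 3.27 and 2.52 CPM at E17 and 6.85 and 5.08 at P0 (0.95 ± 0.25), a call lost with a spread per stage (adjusted p = 0.21) and without P0 replicate 1 (0.052).

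Of 17 meningeal fibroblast and collagen genes, 2 were lower (11.8%, against 11.1% of all genes tested, median -0.79, with 0 and 1 under a spread per stage and 0 and 1 without P0 replicate 2), with a sum of 81 and 72 CPM at E17 and 48 and 31 at P0. Igfbp2 gave 66.7 and 61.6 at E17 and 39.5 and 23.6 at P0 (-1.12 ± 0.20, and -0.70 without P0 replicate 2). The part of vessels, blood and meninges left on the dissected tissue in these falls, Slc2a1, Slco1c1 and Mfap4 among them, was not tested. Microglia genes gave 1 call among 20, that of P2ry12 (-0.67 ± 0.20; adjusted p = 0.048), a call lost with a spread per stage and without P0 replicate 2, with sums of 55 and 50 CPM at E17 and 46 and 42 at P0. None of 12 choroid plexus genes was called (1 higher without P0 replicate 2). Ttr, its most abundant member, gave 4.45 and 5.07 at E17 and 13.4 and 6.66 at P0.

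Interneurons reach the cortex from the ganglionic eminences. Of 21 interneuron lineage genes, 4 were higher and 1 lower (median 0.33, with 1 and 1 under a spread per stage and 6 and 2 without P0 replicate 2), with sums of 275 and 287 CPM at E17 and 357 and 316 at P0. Gad1, the enzyme that makes GABA, gave 24.5 and 26.7 at E17 and 51.1 and 54.1 at P0 (1.05 ± 0.12; adjusted p = 0.002). Cxcr4, a chemokine receptor of migrating interneurons, gave 19.8 and 18.6 at E17 and 11.1 and 7.45 at P0 (-1.16 ± 0.18). Both kept the call with a spread per stage. Among 9 striatal and ganglionic eminence genes, Rxrg was higher (1.85 ± 0.36) and Meis2 lower (-0.38 ± 0.09; adjusted p = 0.1 with a spread per stage). Each call was 11.1% of the group, against 9.46% higher and 11.1% lower over all genes. The group's counts were 1 and 0 under a spread per stage and 1 and 1 without P0 replicate 2, and its sum was 314 and 298 CPM at E17 and 236 and 244 at P0.

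The step across birth was also compared with the step before it, by testing P0 minus E17 against E17 minus E15.5 in the same fit. The steps differ in length. This difference had an unadjusted p under 0.05 in 2687 genes (19.9%) and was called in 343 (2.54%), 26 more upward across birth (0.193%) and 317 more downward (2.35%), 25 of the 26 were also called higher at P0 than at E17, and 270 of the 317 called lower. No upward gene was left with libraries thinned, with the replicate number as a block, or without either E12.5 library. The call depends on single libraries, with 0 genes without either E17 library (1265 and 1826 at an unadjusted p under 0.05), 1 without either E15.5 library, and 1967 and 1675 without P0 replicates 1 and 2. Slco1c1 gave 7.59 and 8.403 CPM at E15.5, 25.6 and 26.1 at E17 and 9.46 and 10.5 at P0, a step difference of -3.05 ± 0.20 (adjusted p = 0.00298). Cyp51 gave 22.5 and 22.4 at E15.5, 40.8 and 41.1 at E17 and 18.3 and 21.0 at P0 (-1.91 ± 0.19; adjusted p = 0.012). Both were higher at E17 than at the stages on either side. Among the upward genes, Fam107a gave 0.814 and 0.887 CPM at E15.5, 0.984 and 0.788 at E17 and 6.85 and 8.16 at P0, a step difference of 3.01 ± 0.42 (adjusted p = 0.022). Camk2a gave 13.0 and 11.9 at E15.5, 14.8 and 19.0 at E17 and 57.4 and 55.9 at P0 (1.33 ± 0.27; adjusted p = 0.048). Rbm3 gave 2275 and 2129.5 at E15.5, 1874 and 1779.6 at E17 and 3052 and 3930.1 at P0 (1.19 ± 0.22; adjusted p = 0.037).

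**Figure D5:**
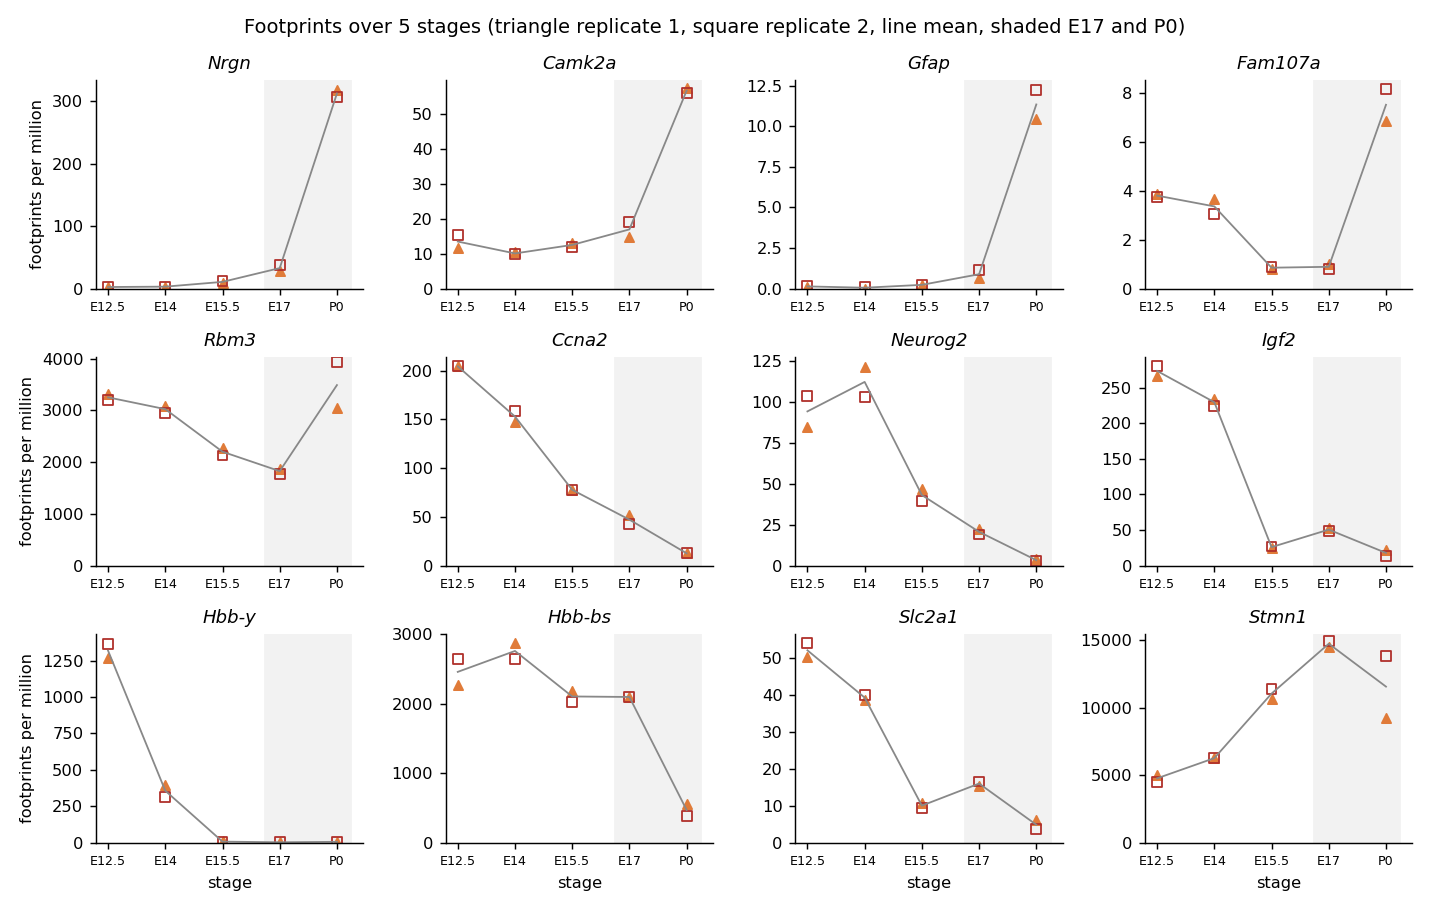
CPM of 12 genes at the 5 stages, with a triangle for replicate 1, a square for replicate 2, a line through the means and shading over E17 and P0. Nrgn reaches 318 and 306 CPM at P0 from 27.9 and 37.4 at E17, Rbm3 and Fam107a are lowest at E15.5 or E17 and higher at P0, Ccna2 and Neurog2 decline at each step from E14 on, and the P0 replicates of Stmn1 lie apart at 9281 and 13875.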

How the data were processed

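Ribosome footprints were deposited as a table of counts per gene, not normalized, with 1 column per library. The authors aligned reads with STAR to GENCODE release M12 of the mouse, keeping multi-mapping reads. The submitters' processing notes give STAR 2.7.0 and the study's methods give an earlier version. Those methods name DeepShape-prime and tximport, which gives length-corrected gene counts. Whether this table of whole numbers is that output is not stated. Of 22373 identifiers, 99 had no symbol. Genes with at least 32 footprints in a stage were kept and scaled by TMM (edgeR 4.0.16). All 10 libraries were fitted with limma-voom (limma 3.58.1, R 4.3.3) with stage as the only term, and P0 was tested against E17, two-sided, with Benjamini-Hochberg adjusted p-values. A gene was called when its adjusted p was below 0.05 and it changed by 1.25-fold or more. DESeq2 1.42.0 and edgeR served as alternatives, and the scripts were tested on simulated data. The simulation gave each gene the same dispersion in all stages, without the wider spread at P0. It therefore cannot say how many of the reported calls are false. Replicates are separate pools, so p-values measure the spread between pools.

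The gene lists, and the comparison itself, were chosen with earlier results of these data known. Named genes are the 12 largest rises and falls with a mean of at least 100 counts, ranked by the smaller change of the P0 libraries, up to 3 rises and 3 falls per list, the gene pairs, and the most abundant member of a list with no call. Leading and per-list rises and falls had to be called with both P0 libraries beyond both E17 libraries. Their lack of overlap between the stages therefore follows from the selection. Genes of the intestine, those that differed between P0 libraries, the genes shown with promoters, and further list members at 0 counts were added after their values were seen. Near-identical copies (globins, Hspa1a and Hspa1b, histones, defensins) are uncertain. A few genes that this rule or the marker list names are not reported here.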

Additional observations from a re-analysis of the deposited data

How the results depend on the processing

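The number of genes called depended on how the spread was estimated. Against 2767 as reported, 698 were called with quality weights per library, 758 with weights per stage, 0 in the 4-library fit (784 there with DESeq2) and 1460 with libraries thinned to the shallowest. Leaving out 1 library gave 554 to 4372, with 554 and 1197 without E17 replicates 1 and 2, and 4311 and 4372 without P0 replicates 1 and 2. With 1 library left in a stage, it is assumed to vary like the other stages. Without E12.5 replicate 1 and P0 replicate 2 together, a setting chosen after seeing the data, 4811 were called. For genes beyond E17 in both P0 libraries, 2363 as reported, the same settings gave 693, 758, 0 and 1426, a range of 554 to 4288 on leaving out 1 library, and 4696. The difference between steps, 343 as reported, was called in 208 genes with total counts only, 117 without a filter and 43 with thinned libraries, in 0 to 1967 on leaving out 1 library, and in 2307 in the added setting. The cause was not tested. The remaining settings gave counts of called genes within 1.5 times those reported.

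Replicate numbers do not pair the samples, since nothing in the labels ties same-numbered libraries. With the replicate number as a block, 2124 genes were called between P0 and E17, and 10 for the difference between steps. The correlation of replicate 1 minus replicate 2 was 0.21 between E17 and P0, and ran from -0.635 to 0.427 over pairs of stages. The shallowest library, P0 replicate 1, limits genes with few counts.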
